A study of Mus with 18 samples.

Results

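The S100 proteins are small calcium-binding proteins, each built from a pair of EF-hand motifs and mostly working as dimers. Inside cells they change shape on calcium binding and then bind targets such as annexins, myosins and calcium channels. Some members are also released from injured or activated cells and act as alarmins on Toll-like receptor 4 and on the receptor for advanced glycation end products, encoded by Ager. In striated muscle S100a1 is the member best known for a role in contraction, whereas S100a8 and S100a9 are abundant in neutrophils and in activated myeloid cells.

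The genes described here are S100a1, S100a4, S100a6, S100a8, S100a9, S100a10, S100a11, S100a13, S100a16 and S100b, which are 10 of the 21401 gene rows in each expression table and were chosen by symbol. Messenger RNA was sequenced in 18 libraries. Cultured mouse cells gave 9 of them and gastrocnemius muscle of mice the other 9, each experiment holding 3 groups of 3 libraries. The cultured cells are labelled wild-type C2C12 myoblasts, an established mouse muscle cell line. They received vehicle (control), lipopolysaccharide (LPS, the outer-membrane glycolipid of Gram-negative bacteria) at 1 μg/mL, or LPS at that dose with 10 μM moringa isothiocyanate-1 (MIC-1, an isothiocyanate from Moringa oleifera seeds) for 24 h (LPS-MIC-1). The study's text names a lower MIC-1 concentration for the sequenced cells than the labels do, and that was not resolved. The muscles came from wild-type male C57BL/6 mice that received vehicle, an intraperitoneal injection of LPS at 10 mg/kg, or the same injection after 3 daily gavages of 80 mg/kg MIC-1 in 10% DMSO, and muscle was taken 16 h after the injection. Nothing in the labels says whether the 3 libraries of a group came from separate cultures or separate mice, so the p-values measure the spread between these libraries, which may be technical. Values are FPKM (fragments per kilobase of transcript scaled to the mapped fragments of a library), a length-corrected level that can be compared between genes of one library.

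The markers of the cultured libraries went against their label in control and LPS. Of 13 macrophage markers, 12 were in the table, and their summed level was 6883 to 7005 FPKM (control), 4761 to 4878 FPKM (LPS) and 77.0 to 213 FPKM (LPS-MIC-1). The 11 myogenic markers, among them Myod1 and Myog, summed to 0.136 to 0.487 FPKM, 0.364 to 2.67 FPKM and 936 to 1193 FPKM, with Myf5 and Pax7 at 0 in all control and LPS libraries. A list of 7 fibroblast markers followed the myogenic one at 0.0245 to 0.0543 FPKM, 0.848 to 1.95 FPKM and 442 to 537 FPKM. In these libraries, therefore, the presence of MIC-1 cannot be told apart from the change between macrophage and muscle-cell markers, and each comparison below is one of libraries by their labels. In muscle the 15 fibre markers were abundant in every library, as the tissue label has it, but their sum was lower in LPS-MIC-1, at 250743 to 255989 FPKM (control), 239932 to 243574 FPKM (LPS) and 190105 to 204922 FPKM (LPS-MIC-1). The summed FPKM of all genes was lower there too, at 722994 to 740810 (control), 715513 to 728858 (LPS) and 634197 to 672157 (LPS-MIC-1). Muscle LPS-MIC-1 replicate 3 stood apart, with the macrophage markers at 142 FPKM against 30.0 and 30.2 FPKM in replicates 1 and 2, and results that rest on it are given with and without it.

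Different members dominated in the 2 settings. In the libraries labelled C2C12, S100a4, S100a11, S100a6 and S100a10 made up between 92.9 and 98.9% of the members' summed FPKM. In muscle S100a1 alone made up between 53.7 and 68.3%. As a share of the summed FPKM of a library, the members reached 0.726 to 0.755% (control), 0.328 to 0.351% (LPS) and 1.81 to 2.20% (LPS-MIC-1) in the C2C12 series, and 0.0548 to 0.0659% over all 9 muscle libraries. Tables of the 2 experiments were deposited separately, so levels set side by side across them are descriptions.

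**Figure D1:**
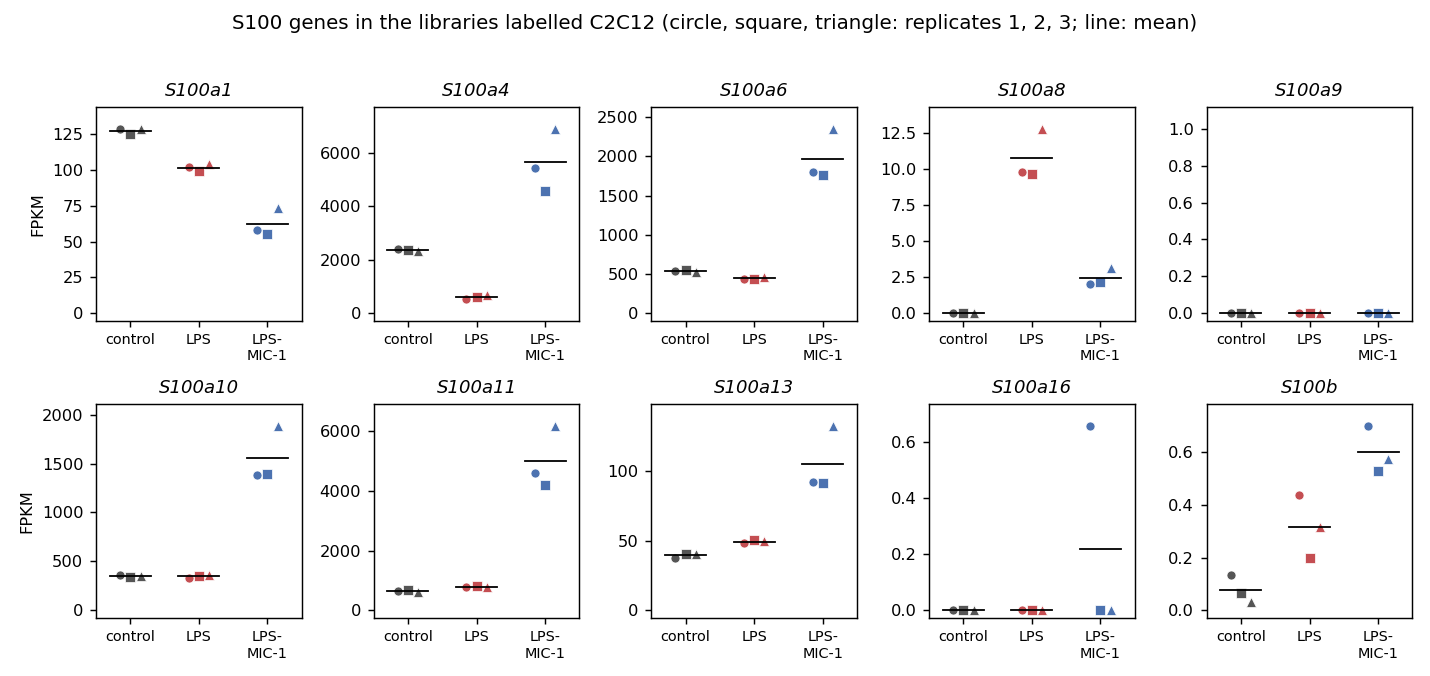
FPKM of each S100 gene (y axis, linear and starting at 0, with a scale of its own in each panel) in the control, LPS and LPS-MIC-1 libraries labelled C2C12, where symbols are the 3 replicates and the line is their mean. S100a4, S100a6, S100a10, S100a11 and S100a13 were highest in LPS-MIC-1, S100a1 was lowest there, S100a8 was highest in LPS and S100a9 was at 0 in all 9 libraries.

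In control of the C2C12 series the order of mean levels was S100a4 (2375 FPKM), S100a11 (653 FPKM), S100a6 (538 FPKM), S100a10 (350 FPKM), S100a1 (128 FPKM), S100a13 (39.5 FPKM) and S100b (0.0778 FPKM), with S100a8, S100a9 and S100a16 listed at 0, and no neighbours among the first 7 overlapped. In LPS S100a11 moved to the top at 794 FPKM, above S100a4 at 604 FPKM, again without overlap. In LPS-MIC-1 the values of S100a4 (5645 FPKM) and S100a11 (4995 FPKM) overlapped, as did those of S100a6 (1970 FPKM) and S100a10 (1555 FPKM), and S100a13 stood above S100a1 for the first time.

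S100a4, which binds non-muscle myosin heavy chain and is a marker of motile mesenchymal and myeloid cells, had the widest swing of the abundant members in the cultured libraries. It was measured at 2410, 2368 and 2346 FPKM in control, at 549.5, 594 and 668 FPKM in LPS and at 5439, 4594 and 6902 FPKM in LPS-MIC-1. The 3 groups did not overlap, with LPS lowest and LPS-MIC-1 highest. S100a4 fell by 1.98 on the log2 scale in LPS against control (SE 0.146, limma with Benjamini-Hochberg adjustment, adjusted p = 8.8e-06). It rose by 3.21 in LPS-MIC-1 against LPS (SE 0.146, adjusted p = 1.77e-07), which left it above control by 1.23 (SE 0.146, adjusted p = 7.72e-05). Fold changes here and below are on the scale of log2(FPKM + 0.1), and a gene was called where it changed by over 1 on that scale at an adjusted p under 0.001 in the cultured libraries or under 0.05 in muscle.

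S100a10 and S100a11 are both annexin partners. S100a10 forms a tetramer with annexin A2 and, unlike its relatives, no longer binds calcium, and S100a11 pairs with annexin A1. S100a10 was measured at 361, 340 and 350 FPKM in control, at 333, 348 and 365 FPKM in LPS and at 1387, 1394 and 1883 FPKM in LPS-MIC-1. Control and LPS overlapped, with a difference of -0.01 (95% interval -0.27 to 0.26), whereas every LPS-MIC-1 library was higher than both. The rise against LPS was 2.14 (SE 0.115, limma adjusted p = 4.74e-07). S100a11 was measured at 659, 684 and 617 FPKM in control, at 784, 804 and 795 FPKM in LPS and at 4612, 4193 and 6180 FPKM in LPS-MIC-1. All LPS libraries lay above all control libraries, by 0.28 (SE 0.134), but this was not called (adjusted p = 0.0992). With quantile normalization the LPS difference was 0.069 for S100a11 and -0.36 for S100a10. Against LPS the LPS-MIC-1 libraries were higher by 2.63 (SE 0.134, adjusted p = 3.33e-07).

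S100a6, or calcyclin, binds calcyclin-binding protein and several annexins. Its levels were 535, 552 and 527 FPKM in control, 429, 439 and 467 FPKM in LPS, and 1798, 1762 and 2349 FPKM in LPS-MIC-1. LPS lay below control without overlap, by 0.27 (SE 0.108, adjusted p = 0.0558), which was not called, and the difference was -0.60 with quantile normalization. This limma adjusted p ran from 0.000527 to 0.145 over the fits that left out 1 library. LPS-MIC-1 lay above LPS by 2.13 (SE 0.108, limma adjusted p = 3.28e-07). S100a13, which takes part in the release of the leaderless proteins FGF1 and IL-1α, was measured at 37.7, 40.7 and 40.2 FPKM in control, at 48.3, 50.2 and 49.5 FPKM in LPS, and at 92.0, 91.4 and 132 FPKM in LPS-MIC-1. The 3 groups again formed separate steps, the lowest in control. The rise against LPS was 1.07 (SE 0.132, adjusted p = 8.54e-05), close to the size needed for a call, and it was 0.89 without LPS-MIC-1 replicate 3.

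S100a1, a modulator of the ryanodine receptor and of the calcium pump of the sarcoplasmic reticulum, went the other way in the cultured libraries. It was measured at 129, 125 and 129 FPKM in control, at 102, 99.1 and 104 FPKM in LPS and at 58.1, 55.4 and 73.7 FPKM in LPS-MIC-1. Each group lay wholly below the one before. LPS-MIC-1 was below LPS by 0.72 on the log2 scale (difference -0.72, SE 0.0972, limma adjusted p = 0.000157), which missed the size needed for a call, and below control by just over it (difference -1.04, SE 0.0972, adjusted p = 1.65e-05). S100a1 and S100a13 lie next to each other on mouse chromosome 3 and their RefSeq annotations overlap, and whether strand was used in quantification is not given in the sources used here, so reads from the shared stretch are uncertain.

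Among the alarmins, S100a8 was detected and S100a9 was not. S100a8 was listed at 0 in all 3 control libraries, at 9.83, 9.68 and 12.8 FPKM in LPS and at 2.02, 2.14 and 3.11 FPKM in LPS-MIC-1. LPS was thus the highest group and LPS-MIC-1 an intermediate one, with no overlap. The difference from control was called in both (limma adjusted p = 7.48e-08 for LPS and 1.12e-07 for LPS-MIC-1), and no fold is given because control is at 0. Against LPS, S100a8 in LPS-MIC-1 fell by 2.12 on the log2 scale (SE 0.191, adjusted p = 1.16e-05). The authors' mean normalized count of S100a8 over the 6 control and LPS libraries was 19.7, so the level rests on a modest number of fragments. S100a9, whose product pairs with that of S100a8 to form calprotectin, was listed at 0 in all 9 libraries. The neutrophil marker list, of which 11 of 12 genes were in the table, summed to 5.07 to 6.16 FPKM (control), 33.0 to 33.8 FPKM (LPS) and 4.18 to 8.29 FPKM (LPS-MIC-1), with the neutrophil genes Ltf and Retnlg at 0 in all 9 libraries. Mmp9 carried the higher sum in LPS, with a mean of 30.7 FPKM against 0.487 FPKM in control, while Csf3r went from 4.24 to 1.06 FPKM and Elane from 0.362 to 0.0819 FPKM. The part of other cells in the S100a8 level was not tested.

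S100b, a homodimer best known from glia and also found in muscle progenitors, and S100a16, a widely expressed member, stood at the bottom of the range and did not reach the mean of 1 FPKM needed for a test. S100b was measured at 0.134, 0.0664 and 0.0328 FPKM in control, at 0.437, 0.200 and 0.318 FPKM in LPS and at 0.700, 0.530 and 0.576 FPKM in LPS-MIC-1. The 3 groups did not overlap and stood in that order, but an exact permutation test of 3 against 3 libraries cannot go below p = 0.1, which is what each pair gave. The authors' normalized counts of S100b summed to 32.7 over the 6 control and LPS libraries. S100a16 was listed at 0 in 8 of the 9 libraries and at 0.658 FPKM in LPS-MIC-1 replicate 1.

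Over the cultured libraries as a whole, 7 of the 10 members passed the filter of a mean over 1 FPKM, and S100a8 did so through LPS alone, a group in which it then had to stand higher. In LPS against control 2 of the 7 were called, S100a8 higher and S100a4 lower, where 20.9% of the 10877 genes tested were called. In LPS-MIC-1 against LPS 5 were called higher, where 24.3% of all tested genes were, and 1 lower, where 25.6% were, with 49.9% called in either direction. In LPS-MIC-1 against control 6 were called higher, where 21.1% of genes were, and 1 lower, where 22.1% were, with 43.3% called in all. The rises against control were 2.92 for S100a11, 2.13 for S100a10, 1.86 for S100a6 and 1.39 for S100a13 (limma adjusted p from 2.06e-07 to 1.83e-05). Both of these comparisons share the LPS-MIC-1 libraries. The median log2 difference of the 7 members was -0.01, 2.13 and 1.86 in the 3 comparisons in that order, where it was 0, -0.05 and -0.06 over all tested genes. Groups did not overlap for 6, 7 and 7 of the 7 members, where this held for 79.4%, 85.5% and 83% of all tested genes.

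LPS-MIC-1 replicate 3 had the highest value of its group for all 7 tested members. Its ratio to the mean of replicates 1 and 2 ran from 1.3 for S100a1 to 1.49 for S100a8, where the median was 1.05 over all tested genes and 1.25 over the 110 genes with a mean over 1000 FPKM. Without this library 5 members were called against LPS, the one lost being S100a13. LPS-MIC-1 replicate 1 had the most macrophage RNA of its group, with 8 macrophage genes at 2.65 to 6.66% of their mean in LPS. Its S100a8 was at 2.02 FPKM, beside 2.14 and 3.11 FPKM in replicates 2 and 3. The part of macrophage RNA in these values was not tested. Without LPS-MIC-1 replicate 1 the fold changes against LPS were -2.01 for S100a8 and 3.23 for S100a4.

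**Figure D2:**
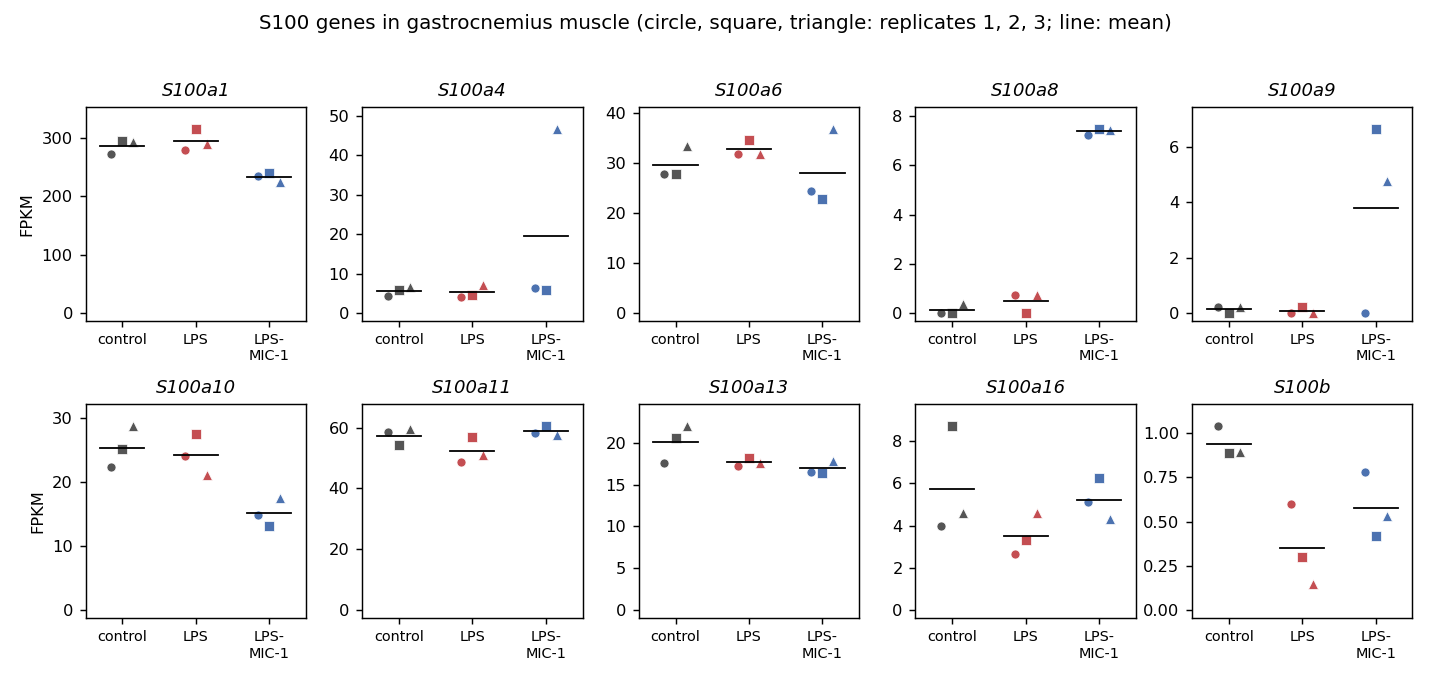
FPKM of each S100 gene (y axis, linear and starting at 0, with a scale of its own in each panel) in the control, LPS and LPS-MIC-1 gastrocnemius libraries, where symbols are the 3 replicates and the line is their mean. S100a8 was near 0 in control and LPS and between 7.25 and 7.47 FPKM in LPS-MIC-1, and the S100a4 mean of LPS-MIC-1 was set by replicate 3 at 46.7 FPKM.

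In control muscle the order of mean levels was S100a1 (286 FPKM), S100a11 (57.3 FPKM), S100a6 (29.7 FPKM), S100a10 (25.4 FPKM), S100a13 (20.05 FPKM), S100a16 (5.75 FPKM), S100a4 (5.60 FPKM) and S100b (0.939 FPKM), with S100a9 and S100a8 lowest. S100a6 and S100a10 overlapped, and so did S100a16 and S100a4. S100a1 and S100a11 kept ranks 1 and 2 without overlap in all 3 groups. In LPS-MIC-1 the values of S100a6, S100a4, S100a13 and S100a10 overlapped from one rank to the next, and S100a8 stood above S100a16 without overlap.

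S100a1, the dominant member of the tissue, was measured at 272, 294 and 293 FPKM in control, at 280, 315 and 289 FPKM in LPS and at 235, 239 and 224 FPKM in LPS-MIC-1. Control and LPS overlapped, while all LPS-MIC-1 libraries lay below both. The summed fibre markers were also lowest in LPS-MIC-1, without overlap, but the list did not fall gene by gene. The median log2 difference of the 15 fibre markers was -0.24 against LPS and -0.03 against control. In LPS-MIC-1 0 of the 15 were called lower against LPS or control, where 5.44% and 6.12% of all tested genes were. Myh1 was called higher against control. The part of fibre RNA in the S100a1 values was not tested. The difference of LPS-MIC-1 from LPS was -0.34 (SE 0.0516, limma adjusted p = 0.000632) and from control -0.30 (SE 0.0516, adjusted p = 0.00126), both under the size of a call. LPS differed from control by 0.04 (95% interval -0.08 to 0.16). S100a13 was measured at 17.6, 20.6 and 21.97 FPKM in control, at 17.2, 18.2 and 17.6 FPKM in LPS and at 16.5, 16.4 and 17.8 FPKM in LPS-MIC-1. Its groups overlapped, with a difference of -0.24 between LPS-MIC-1 and control (SE 0.0805, adjusted p = 0.0325).

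S100a10 was lower in LPS-MIC-1 in muscle, where the cultured libraries had it higher. It was measured at 22.4, 25.1 and 28.7 FPKM in control, at 24.0, 27.5 and 21.1 FPKM in LPS and at 14.9, 13.1 and 17.5 FPKM in LPS-MIC-1. Every LPS-MIC-1 library lay below every other one. The difference was -0.67 against LPS (SE 0.138, limma adjusted p = 0.0034) and -0.74 against control (SE 0.138, adjusted p = 0.00193), again under the size of a call, and it was -0.78 against LPS without LPS-MIC-1 replicate 3. S100a11 was measured at 58.4, 54.2 and 59.4 FPKM in control, at 48.8, 57.1 and 51.1 FPKM in LPS and at 58.2, 60.5 and 57.5 FPKM in LPS-MIC-1. Its LPS-MIC-1 libraries lay just above the LPS ones, by 0.17 (SE 0.0619, adjusted p = 0.0458). The limma adjusted p was 0.0661 without LPS-MIC-1 replicate 3 and 0.0835 without replicate 1. It reached 0.148 over the fits that left out 1 library.

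The muscle values of S100a4 and S100a6 depended on 1 library. S100a4 was measured at 4.37, 5.88 and 6.57 FPKM in control, at 4.17, 4.70 and 7.13 FPKM in LPS, and at 6.34, 5.80 and 46.7 FPKM in LPS-MIC-1. Without replicate 3 the LPS-MIC-1 values fell within the range of LPS. The difference from LPS was 1.195 with that library (SE 0.713, limma adjusted p = 0.188) and 0.22 without it (adjusted p = 0.491). S100a6 was measured at 27.8, 27.7 and 33.5 FPKM in control, at 31.8, 34.7 and 31.9 FPKM in LPS, and at 24.3, 22.9 and 36.8 FPKM in LPS-MIC-1. Replicates 1 and 2 of LPS-MIC-1 were the lowest of the 9 values and replicate 3 the highest. The difference from LPS was -0.26 with replicate 3 (SE 0.168, adjusted p = 0.221) and -0.47 without it (adjusted p = 0.00388).

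The excess of that library was set beside the macrophage markers. For the 8 macrophage genes above 10 FPKM in the control libraries labelled C2C12, the amount by which muscle LPS-MIC-1 replicate 3 exceeded the mean of replicates 1 and 2 was 1.57 to 2.08% of their mean in those control libraries, and 0.585 to 6.46% of their mean in LPS. The other 4 macrophage genes in the table were low in those control libraries and showed little or no excess, with C1qb at 6.79 FPKM against 6.90 and 7.61 FPKM in replicates 1 and 2, Mrc1 at 0.206 against 0.239 and 0.339 FPKM, C1qa at 5.33 against 5.28 and 4.99 FPKM, and C1qc at 4.54 against 3.74 and 4.46 FPKM. The excess of S100a4, 40.6 FPKM, was 1.71% of its C2C12 control mean, and that of S100a6, 13.2 FPKM, was 2.45%. For S100a10 and S100a13 the share was 0.994 and 3.52%, and the value was negative for S100a11 at -0.292% and for S100a1 at -9.85%. These percentages join tables that were deposited separately, and the origin of the excess was not tested.

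**Figure D3:**
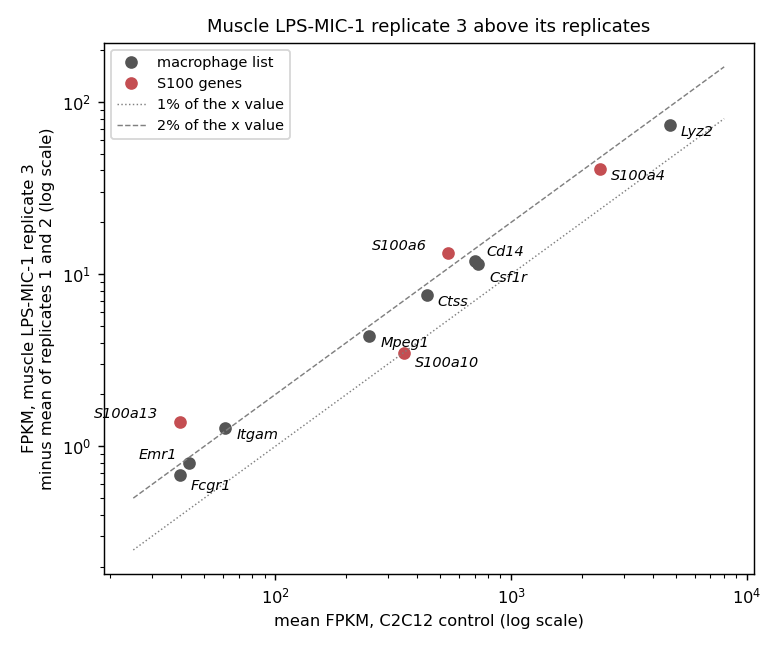
Excess FPKM of muscle LPS-MIC-1 replicate 3 over the mean of its replicates 1 and 2 (y axis, log scale) against mean FPKM of the C2C12 control libraries (x axis, log scale) for 8 macrophage markers and the S100 genes with a positive excess and a control mean over 10 FPKM, with lines at 1 and 2% of the x value. S100a4 at 1.71% lies within the range of the macrophage markers, S100a10 lies at 0.994%, and S100a6 and S100a13 lie above the upper line.

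S100a8 was the 1 member called in muscle. It was measured at 0, 0 and 0.357 FPKM in control, at 0.739, 0 and 0.733 FPKM in LPS, and at 7.25, 7.47 and 7.41 FPKM in LPS-MIC-1. The 3 LPS-MIC-1 libraries were nearly equal and far above all others, while control and LPS overlapped. The difference was 4.18 against LPS (SE 0.905, limma adjusted p = 0.00435) and 5.49 against control (SE 0.905, adjusted p = 0.000956). S100a8 passed the filter on the mean only through LPS-MIC-1 and so had to stand higher there if tested. It was again the 1 member called in both comparisons when a gene only had to be above 0 in 3 libraries. The LPS-MIC-1 libraries alone met that rule and the values were the same, so this fit adds no separate support. LPS differed from control by 1.31 (95% interval -0.77 to 3.39), which was not called (limma adjusted p = 0.380) and ran from 0.38 to 2.42 over the other processing settings. The size of the difference depends on the constant added before taking logs, since several libraries are at 0, and ran from 2.54 to 5.38 against LPS when that constant was 1 or 0.01. The authors' normalized counts summed to 64.2 over the 6 control and LPS-MIC-1 libraries, so the libraries below 1 FPKM rest on very few fragments.

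S100a9 was measured at 0.216, 0 and 0.213 FPKM in control, at 0, 0.220 and 0 FPKM in LPS, and at 0, 6.65 and 4.79 FPKM in LPS-MIC-1. LPS-MIC-1 replicate 1 was at 0 although its S100a8 was close to that of the other replicates, and so the groups overlapped. The difference from LPS was 3.34 (SE 1.56) and was not called (limma adjusted p = 0.103), and it was 5.28 without replicate 1 (adjusted p = 0.00136) and 2.48 without replicate 3 (adjusted p = 0.281). In LPS-MIC-1 against control it was 2.79 (limma adjusted p = 0.159), 4.74 without replicate 1 (adjusted p = 0.00223) and 1.94 without replicate 3 (adjusted p = 0.391). S100a9 too passed the filter only through LPS-MIC-1.

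In muscle 2 of the 11 neutrophil markers found were tested, and 1 of them, Ngp, was called higher in LPS-MIC-1 against LPS. The summed level of the list was 1.84 to 2.49 FPKM (control), 1.21 to 1.67 FPKM (LPS) and 7.09 to 7.90 FPKM (LPS-MIC-1). The granule gene Ngp was at 0 in all control and LPS libraries and at 3.53, 2.68 and 3.28 FPKM in LPS-MIC-1, the group through which alone it passed the filter. Cxcr2, the other one tested, had means of 1.58, 1.17 and 1.44 FPKM in control, LPS and LPS-MIC-1, and Mmp9, below the filter, had means of 0.334, 0.156 and 0.230 FPKM. Ltf, Csf3r, Stfa2l1 and Elane were also at 0 in control and LPS, and Elane was at 0 in LPS-MIC-1 too. In bulk tissue fewer cells of a type and less RNA per cell cannot be told apart, nor more of either, and the part of neutrophils in the S100a8 and S100a9 levels was not tested.

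**Figure D4:**
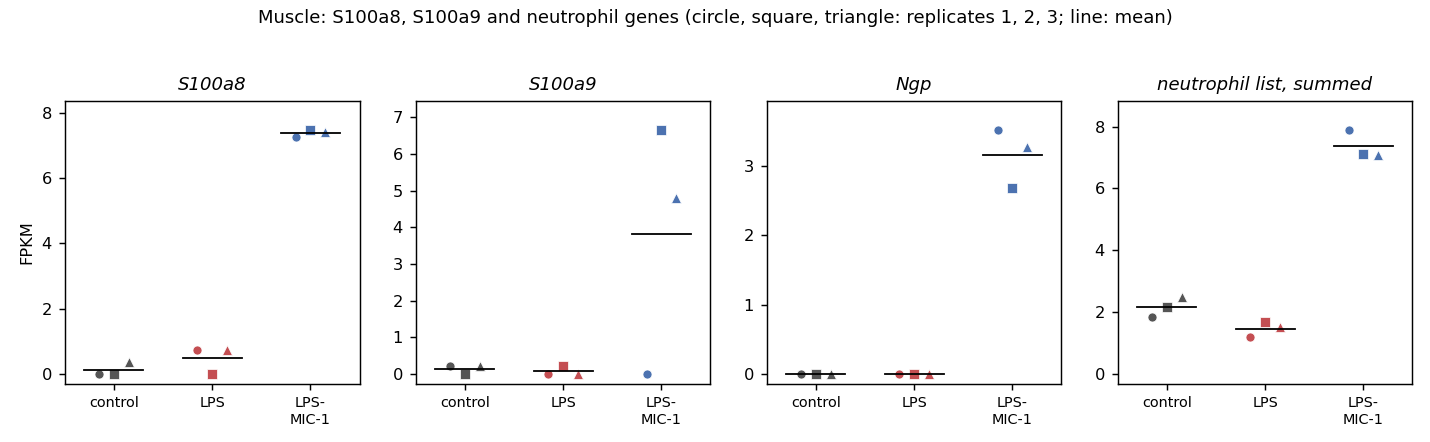
FPKM of S100a8, S100a9, the neutrophil granule gene Ngp and the sum of 11 neutrophil markers (y axes, linear and starting at 0) in the 9 muscle libraries, where symbols are the 3 replicates of each group and the line is their mean. All 3 LPS-MIC-1 libraries lie above the others for S100a8, Ngp and the summed list, while S100a9 was at 0 in LPS-MIC-1 replicate 1.

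S100a16 and S100b closed the list in muscle. S100a16 was measured at 3.96, 8.70 and 4.58 FPKM in control, at 2.66, 3.31 and 4.59 FPKM in LPS and at 5.12, 6.24 and 4.32 FPKM in LPS-MIC-1. The groups overlapped, and LPS differed from control by -0.64 (95% interval -1.35 to 0.07). S100b, below the level needed for the test, was measured at 1.04, 0.884 and 0.893 FPKM in control, at 0.598, 0.301 and 0.149 FPKM in LPS and at 0.778, 0.422 and 0.533 FPKM in LPS-MIC-1. Control lay above both other groups, which overlapped, and the exact permutation p was 0.1 for LPS against control, the smallest this design allows. The Schwann cell list (8 genes) summed to 13.96 to 16.8 FPKM (control), 10.5 to 11.9 FPKM (LPS) and 26.9 to 30.0 FPKM (LPS-MIC-1), with Mag and Gjb1 at 0 in all muscle libraries. S100b is also expressed in adipocytes, whose 7 markers summed to 288 to 294 FPKM, 220 to 244 FPKM and 324 to 352 FPKM. Nearly all of this was Fabp4, with means of 287, 227 and 325 FPKM, whereas Adipoq, Plin1, Cidec, Lep and Retn were under 1 FPKM in every muscle library. The part of either cell type in the S100b level was not tested.

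Of the 10 members 9 were tested in muscle, S100a8 and S100a9 having passed the filter through LPS-MIC-1 alone. In LPS against control none was called, and 0 of the 9 had an unadjusted limma p under 0.05, where 1.25% of the 9475 genes tested were called, 0.654% higher and 0.591% lower. In LPS-MIC-1 against LPS S100a8 was the 1 member called, where 15.1% of genes were called, 9.67% higher and 5.44% lower. Here 4 members had an unadjusted limma p under 0.05, and the share of all tested genes at that level was not counted. In LPS-MIC-1 against control S100a8 was again the 1 member called, where 15.5% of genes were called, 9.33% higher and 6.12% lower. The median log2 difference of the 9 members was -0.09, 0.17 and -0.07 in these comparisons, where it was 0.01, -0.01 and 0.01 over all tested genes. Groups did not overlap for 0, 4 and 3 of the 9 members, where this held for 36.5%, 64.2% and 64.6% of all tested genes. Quantile normalization changed the split of all called genes in LPS-MIC-1 against LPS from 916 higher and 515 lower to 781 and 667, and shifted the median of all genes to -0.12.

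**Figure D5:**
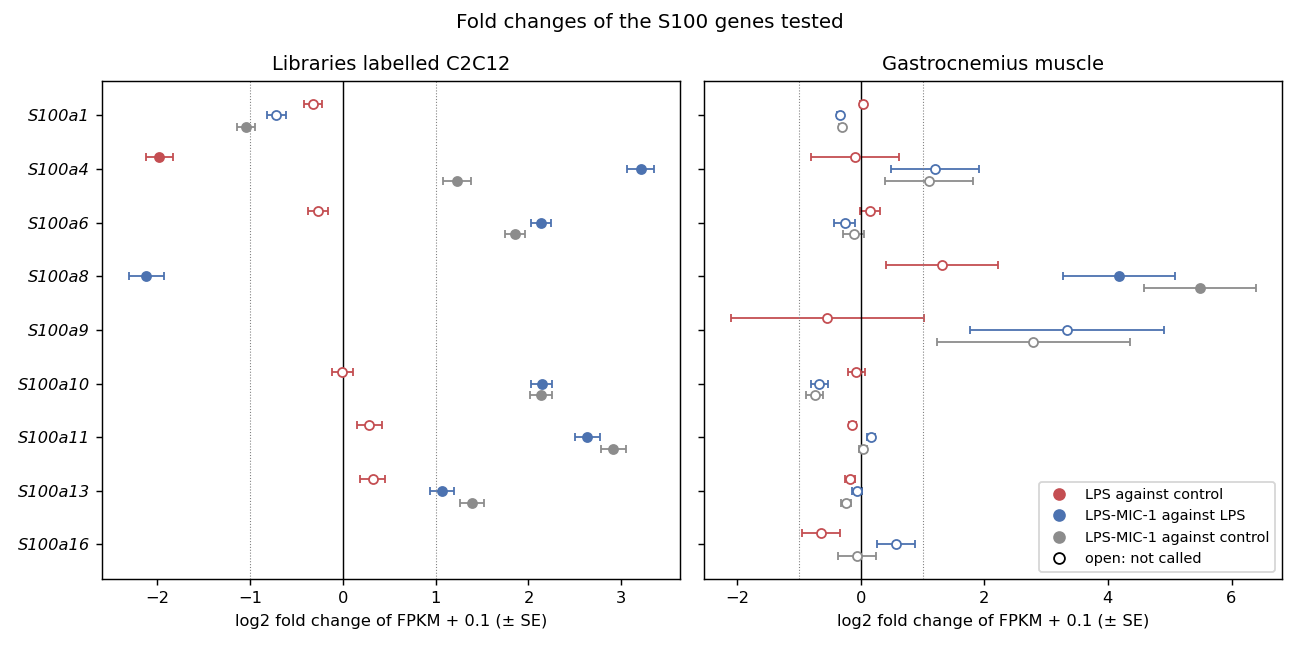
Log2 fold change of FPKM + 0.1 (x axis, with bars of 1 SE from the limma fit) for each S100 gene tested, in the libraries labelled C2C12 (left) and in gastrocnemius muscle (right), with filled points for called differences and dotted lines at -1 and 1. S100a8 in C2C12 is not drawn against control, which is at 0, and S100a10 lies at 2.14 for LPS-MIC-1 against LPS in C2C12 and at -0.67 in muscle.

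The partners of the members were followed through fixed lists of 7 receptors and 15 intracellular or cargo partners. In C2C12 LPS against control 3 of 12 tested partners were called higher and 0 lower, where 10.9% of all tested genes were called higher and 10% lower. One was Il1a, a cargo of S100a13, with means of 0.267, 136 and 1.99 FPKM in control, LPS and LPS-MIC-1, which passed the filter only through LPS and so had to stand higher there. The other 2 were Anxa11 (1.05) and Sugt1 (1.01), both S100a6 partners. Of 5 tested receptors 1 was called, Alcam, an adhesion molecule that binds S100b, higher by 1.97. In LPS-MIC-1 against LPS 6 of the 12 partners were called higher, Plat among them, and 2 lower, Il1a among them, where 24.3% of all tested genes were called higher and 25.6% lower. Plat, the tissue plasminogen activator that S100a10 binds, had means of 0.0487, 0.190 and 3.11 FPKM in control, LPS and LPS-MIC-1 and passed the filter only through LPS-MIC-1, so it too had to stand higher there. Ryr1, named here because it lay near the filter, had means of 1.03, 0.538 and 2.73 FPKM, and its passing also leaned on LPS-MIC-1. Both Plat and Ryr1 count among the partners called higher against LPS and against control. Anxa1, the S100a11 partner, rose by 2.13 (SE 0.140, limma adjusted p = 1.56e-06). Anxa2, the S100a10 partner, was named for its pairing after its values were seen and rose by 1.28 (SE 0.0876, adjusted p = 2.02e-06), from a mean of 679 to 1659 FPKM. Of the receptors Cd36, a scavenger receptor, fell by 7.59 (SE 1.03) and Alcam by 2.96 (SE 0.0708). In LPS-MIC-1 against control 6 partners were called higher and 0 lower, where 21.1% and 22.1% of all tested genes were, among them Plat, Anxa6 (2.48) and Anxa1 (2.26). Of the 5 receptors 0 were called, all 5 with an unadjusted limma p under 0.05, a level at which the share of all tested genes was not counted. Their differences were -5.18 for Cd36 (SE 1.03, limma adjusted p = 0.00173), -0.996 for Alcam, -0.98 for Tlr4, -0.38 for Nptn and 0.76 for Bsg. Cd36 was at 5.67, 0.106 and 0.401 FPKM in LPS-MIC-1, with replicate 1 apart from the others. Ager was at 0 in all control and LPS libraries of both experiments, at 0.544, 0.988 and 0.441 FPKM in the muscle LPS-MIC-1 libraries and at 0.329 FPKM in 1 of the 3 C2C12 LPS-MIC-1 libraries, all below the filter.

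In muscle LPS against control 0 of 11 tested partners and 0 of 4 receptors were called, with 6 and 3 of them at an unadjusted limma p under 0.05. The share of all tested genes at that unadjusted p was not counted, so these numbers and those below show no excess. In LPS-MIC-1 against LPS 4 partners were called higher and 0 lower, where 9.67% of all tested genes were called higher and 5.44% lower. They included Atp2a2, the slow-twitch and cardiac calcium pump that S100a1 modulates, by 1.84 (SE 0.166, adjusted p = 2.8e-05), Fgf1, a cargo of S100a13, by 1.75 (SE 0.110, adjusted p = 3.11e-06), and Ahnak, a scaffold bound by S100a10, by 1.24 (SE 0.0988, adjusted p = 1.37e-05). In LPS-MIC-1 against control 4 were called higher and 0 lower, where 9.33% and 6.12% of all tested genes were, led by Fgf1 (2.29), Atp2a2 (1.71) and Anxa1 (1.17). In both comparisons 0 of 4 receptors were called, with 1 and 3 of them at an unadjusted p under 0.05. Ryr1, the skeletal ryanodine receptor that S100a1 modulates, was abundant in muscle at a mean of 190 FPKM in LPS and 195 FPKM in LPS-MIC-1, a difference of 0.04 (adjusted p = 0.344), and was chosen for mention after its values were seen.

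The other S100 genes were scarce. Of 9 listed, 8 were in the tables, and S100pbp, which encodes an S100P-binding protein and is no S100 protein itself, was the only one tested, and only in C2C12. It was measured at 6.32, 6.29 and 5.95 FPKM in control, at 10.1, 8.99 and 9.30 FPKM in LPS and at 1.29, 0.782 and 1.21 FPKM in LPS-MIC-1, and it fell by 3.03 in LPS-MIC-1 against LPS (SE 0.169, limma adjusted p = 5.88e-07). In the RefSeq gene order the members on chromosome 3 run S100a1, S100a13, S100a16, S100a4, S100a6, S100a8, S100a9, S100a11 and S100a10, with 56 protein-coding genes between S100a9 and S100a11, and S100b lies on chromosome 10. S100a5, between S100a4 and S100a6, reached at most 1.70 FPKM in the C2C12 series, where both neighbours were at 429 FPKM or more in every library.

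The genes whose pattern over the 9 libraries was nearest to that of S100a8 were found by the root mean square distance of centered log2 values, as a description. In the C2C12 series these were AA467197 (distance 0.326 log2 units, Pearson r 0.995), Slc7a2, Ankrd33b, Gng8 and Sema3e, of 10876 genes searched. In muscle they were Synj2 (distance 1.01, r 0.950), Ctla2b, Lmod2, Map3k6 and Ankrd2, of 9474. For S100a9 in muscle they were Snora62 (distance 0.785, r 0.946), Snord70, Gbp3, Snora30 and Cd14. Points of one group share their treatment, and libraries at 0 or near it set much of these distances.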

How the data were processed

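RNA-seq reads were quantified by the authors with kallisto and summarized per gene with tximport, with mm9 named as the build in the submitters' processing notes. The deposited FPKM values were compared with limma 3.58.1 in R 4.3.3 on log2(FPKM + 0.1), with group means fitted over the 9 libraries of an experiment, empirical Bayes with trend, two-sided tests and Benjamini-Hochberg adjustment over all genes with a mean over 1 FPKM. The 2 experiments were fitted apart. The thresholds of a call take their sizes from the study and were applied to adjusted p in both experiments. For muscle the study names a plain p for its counts of changed genes and an adjusted p for the genes it clustered. The deposited signal, the authors' mean normalized count over the 6 libraries compared (DESeq2 per the labels), was used for depth, since FPKM gives no library totals in reads. The fold changes and p-values in those tables are the authors' own comparisons and were not used. Left out of the muscle table were 11 unnamed columns, 9 of which hold values by sample. The script was tested on simulated data. All 10 members matched RefSeq GRCm38 names, whose build differs from mm9, so no coordinates are given. The members and lists were chosen with earlier results of these data known. In the lists, 1 marker is left out and not reported here. All members are named, and from each partner list at most the 3 largest called changes without overlap. Alternatives covered the added constant, the filter, scaling between libraries, the variance model, the libraries in the fit, a replicate block, unadjusted p and leaving out each library. In the alternative without the filter on the mean, a gene still had to be above 0 in at least 3 libraries.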

Additional observations from a re-analysis of the deposited data

Results flagged for a closer look

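For 3 members the groups did not overlap and went one way in the cells and the other way in muscle. In each case the difference between the experiments was not tested, since their tables are separate. Groups without overlap were common over all tested genes. In LPS-MIC-1 against LPS they made up 85.5% of genes in C2C12 and 64.2% in muscle. The shares were 83% and 64.6% in LPS-MIC-1 against control, and 79.4% and 36.5% in LPS against control. How many of all genes went in opposite directions was not counted, so the 3 members are no result about the family. S100a8 in LPS-MIC-1 against LPS had a log2 difference of -2.12 in the libraries labelled C2C12 and of 4.18 in muscle. It passed the filter through LPS alone in the first and through LPS-MIC-1 alone in muscle. Its opposite directions were thus largely set once it was tested in both. S100a10 had 2.14 and -0.67 in LPS-MIC-1 against LPS, and 2.13 and -0.74 in LPS-MIC-1 against control. S100b, below the filter in both tables, had a ratio of group means in LPS against control of 4.09 in the libraries labelled C2C12 and 0.372 in muscle, and in LPS-MIC-1 against control of 7.74 and 0.616. The S100b ratios rest on values of 0.0328 to 1.04 FPKM. The contrasts in the libraries labelled C2C12 run between libraries with macrophage markers and libraries with myogenic markers where LPS-MIC-1 is involved, and the part of this in the opposite directions was not tested.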

How the results depend on the processing

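Of 900 recomputed log2 differences of members, 881 kept their direction and call, 12 reversed, 4 lost and 3 gained a call. All reversals were of differences not called. One was -0.068 for S100a11 in muscle LPS-MIC-1 against control with quantile normalization, and the others came from leaving out 1 library. The range over those fits was -0.041 to 0.026 for S100a10 in C2C12 LPS against control, and in muscle LPS against control -0.0083 to 0.078 for S100a1, -0.31 to 0.066 for S100a4 and -0.17 to 0.025 for S100a10. In muscle LPS-MIC-1 against control it was -0.32 to 0.018 for S100a6, -0.0044 to 0.062 for S100a11 and -0.29 to 0.27 for S100a16. The S100a13 rise in C2C12 LPS-MIC-1 against LPS was 0.84 with quantile normalization and 0.89 without LPS-MIC-1 replicate 3, under the size of a call, and the S100a1 fall against control was -0.997 and -0.962 without LPS-MIC-1 replicate 1 or 2. S100a9 in muscle LPS-MIC-1 against LPS was called with 1 as the added constant (1.73, limma adjusted p = 0.0498). The number of called members moved to 1 in C2C12 LPS against control with a mean over 5 FPKM, since S100a8 was then not tested. In muscle LPS-MIC-1 it moved to 0 against LPS and 0 against control with that filter, for the same reason, and to 2 against LPS with 1 as the added constant. It ranged from 1 to 2 against LPS and from 1 to 2 against control over the fits without 1 library, the 2 being S100a8 and S100a9 without LPS-MIC-1 replicate 1. In the C2C12 comparisons it ranged from 5 to 6 against LPS and from 6 to 7 against control for LPS-MIC-1 over those fits, and was 8 against control with no filter on the mean.

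Genes called in muscle LPS against control numbered 118, and 71 with 1 as the constant, 57 with a mean over 5 FPKM and 185 by unadjusted p. LPS-MIC-1 against LPS gave 1431, and 2158 without the filter and 656 with a mean over 5 FPKM, and against control 1464, 2240 and 677. S100a10 in C2C12 LPS-MIC-1 against control was 1.44 with quantile normalization and 2.13 without. Replicates with the same number did not deviate together (r of deviations between -0.0757 and 0.0823), so they share only a number. With the replicate block the called members stayed at 2, 6 and 7 in C2C12 and at 0, 1 and 1 in muscle, and all genes called were 2056 to 5227 in C2C12 and 115 to 1463 in muscle. Depth limits S100a8, S100a9 and S100b, whose low values rest on few fragments.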

Other observations

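The authors' mean normalized counts of the members differ between the muscle tables. In the table of control against LPS-MIC-1, S100a4 was at 57.0, S100a10 at 131, S100a11 at 255, S100a6 at 214 and S100a13 at 136 counts, and in the table of LPS against LPS-MIC-1 S100a4 was at 55.8, S100a10 at 126 and S100a13 at 126 counts. In the table of control against LPS the values were 0 for S100a4, S100a8 and S100a9, 17369 for S100a10, 29344 for S100a11, 6321 for S100a6 and 1.98 for S100a13, and the table had 21541 rows in place of 21401. The FPKM of S100a4 in the 6 muscle control and LPS libraries were 4.17 to 7.13, so that table goes against the FPKM table. None of the results above rests on it.

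Markers of further cell types were measured alongside. Endothelial markers (8 genes) in muscle summed to 103 to 107 FPKM in control, 65.4 to 68.5 FPKM in LPS and 107 to 123 FPKM in LPS-MIC-1. Of these, 7 were tested. In LPS-MIC-1 against control 1 was called higher and 1 lower, where 9.33% and 6.12% of all tested genes were. Against LPS 2 were called higher and 0 lower, where 9.67% and 5.44% were. Keratinocyte markers (6 genes) summed to 5.15 to 5.78 FPKM, 6.21 to 7.51 FPKM and 2.93 to 4.35 FPKM. Only 1 of the 6 passed the filter. Krt14 was at 0 in all muscle libraries and Krt5 in all LPS and LPS-MIC-1 muscle libraries, so the sum shows no change of the list as a whole. S100a7a, which is no member and was chosen after its values were seen, was listed at 0 in all control and LPS libraries labelled C2C12 and at 1.38, 1.31 and 1.55 FPKM in LPS-MIC-1.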
